A study of Mus musculus with 14 samples.

Results

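Glutathione S-transferases (GST), UDP-glycosyltransferases (UGT) and cytosolic sulfotransferases (SULT) are the 3 enzyme families that attach glutathione, a sugar or sulfate to a molecule and so make it more soluble in water. Their genes were taken from the liver and kidney count tables by symbol, as every gene whose name begins Gsta, Gstk, Gstm, Gsto, Gstp, Gstt, Gstz, Ugt or Sult followed by a number. This gave 52 of the 22263 genes listed in either table: 22 GST, 20 UGT and 10 SULT genes, of which 48 stand in both tables. Gstm3 and Sult2a7 were listed for liver only, and Sult2a3 and Sult2b1 for kidney only. One member, Gstm2-ps1, is annotated as a processed pseudogene and is not an enzyme gene. The animals were adult male mice, 12 weeks old, all transgenic for human angiotensinogen in the form labelled Hap -6A, and they received either a normal diet or high salt. RNA came from liver (4 libraries on each diet) and kidney (3 libraries on each diet). Control and treated animals carried the same transgene, and no animals without it were analysed here. The strain, the duration of the diet and the promoter of the transgene are not given in the sources used here. The labels do not say whether each library came from a separate animal, so p-values measure the spread between these libraries, which may be technical.

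Conjugation is the second stage of drug and hormone clearance, after oxidation by cytochromes P450. GST enzymes add glutathione to reactive electrophiles, UGT enzymes in the endoplasmic reticulum mostly add glucuronic acid from UDP-glucuronate to bilirubin, steroids, phenols and drugs, and SULT enzymes move sulfate from PAPS to phenols, catecholamines, thyroid hormone, steroids and bile acids. The products leave in bile or urine, and in rodents hepatocytes and the proximal tubule of the kidney are both known sites of these reactions. The Ugt1a genes lie in 1 locus in which each gene has a first exon of its own and all share the same last exons.

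The summed expected counts per library were 37267771 to 51487386 in liver and 16046069 to 22004915 in kidney. Members took 0.782% to 1.84% of the counts in liver and 0.470% to 0.785% in kidney, and the Wilson 95% interval of each share is within 0.00432 percentage points of it, for counting error only. Mitochondrial genes took 2.30% and 2.06% of the counts in liver normal diet libraries 1 and 2, the 2 libraries with the highest member shares (1.83% and 1.84%), and 11.3% to 29.6% in the other liver libraries. High salt liver libraries HS5 and HS6, named so in the table, differed from each other by a chi-square of 1.84 per gene, against 11.3 to 68.2 in the 11 other liver pairs within a diet, and the median member differed between them by 0.0558 on the log2 scale against 0.16 to 1.04 in those pairs. The labels list them as separate samples, so they were kept as 2, and the liver diet calls are also given with the counts of the 2 summed to 1 library. Normal diet liver library 4 held 62140 CPM (reads scaled to a common library size with TMM factors) of the 8 acute phase genes against 1757 to 5704 in the other liver libraries, and 54.7 CPM of the 6 neutrophil genes against 0.761 to 1.61. Alb was at 32441 to 85226 CPM in liver and 2.70 to 35.7 CPM in kidney, and the proximal tubule gene Kap was at 19940 to 55673 CPM in kidney and 0 to 37.4 CPM in liver, as the tissue labels say.

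In liver the 22 GST genes together held 6705 ± 1578 CPM on the normal diet (SD, n = 4), the 20 UGT genes 6443 ± 2632 and the 8 SULT genes 1565 ± 625. On high salt these sums were 5477 ± 312, 4236 ± 826 and 961 ± 363 CPM (SD, n = 4). The diets overlapped in every one of the 3 sums. Normal diet libraries 1 and 2 had the highest sums of each family, and normal diet library 4 had the lowest GST and UGT sums. Levels were also taken per kilobase of all annotated exons of a gene, merged. By this measure the highest means over the 8 liver libraries were those of Gstp1 (1097 CPM per kb), the pi-class GST, Ugt2b5 (742), Gstm1 (652), a mu-class GST, Ugt2b36 (520) and Gsta3 (335), the alpha-class enzyme known for clearing aflatoxin epoxide in mice. The merged length can exceed that of a transcript. It is 4344 bases for Gsta3 and 956 to 1266 for the other alpha-class genes, so the order depends on the annotation. The leading SULT gene was Sult2a8 (270 CPM per kb), a bile acid sulfotransferase of mouse liver.

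The liver diet comparison asked which of these genes differed between high salt and the normal diet. Of 46 members with enough counts to test, 3 passed an adjusted p of 0.05 in edgeR's quasi-likelihood test with Benjamini-Hochberg adjustment over all 15130 genes tested, 1 higher and 2 lower, where 1.00% of all genes tested did (0.595% higher and 0.410% lower). Ugt1a5 rose, and Gstm2 and Sult5a1 fell. Without an adjustment 18 of 46 members had a p under 0.05, 15 of them lower and 3 higher, against 21.2% of all genes tested (11.3% lower and 9.83% higher). The fold change lay below 0 for 38 of 46 members and for 52.0% of all genes tested, and its median was -0.47 on the log2 scale against -0.02 over all genes. Without normal diet libraries 1 and 2 the members' median was -0.02, with 1 of 47 members called (Sult5a1), and with HS5 and HS6 summed to 1 library edgeR called 0 of 47, 12 of them with an unadjusted p under 0.05. In that fit 39 of 47 lay below 0, the members' median was -0.44, and 12 of all 15399 genes were called. DESeq2 called 9 members and voom with sample weights 32, against 5.54% and 54.8% of all genes under the same tools. Gsto2, Sult1e1, Ugt1a8 and Ugt8a were too low in liver to test. Since the RNA is from whole tissue, fewer cells of a type and less RNA per cell cannot be told apart.

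**Figure D1:**
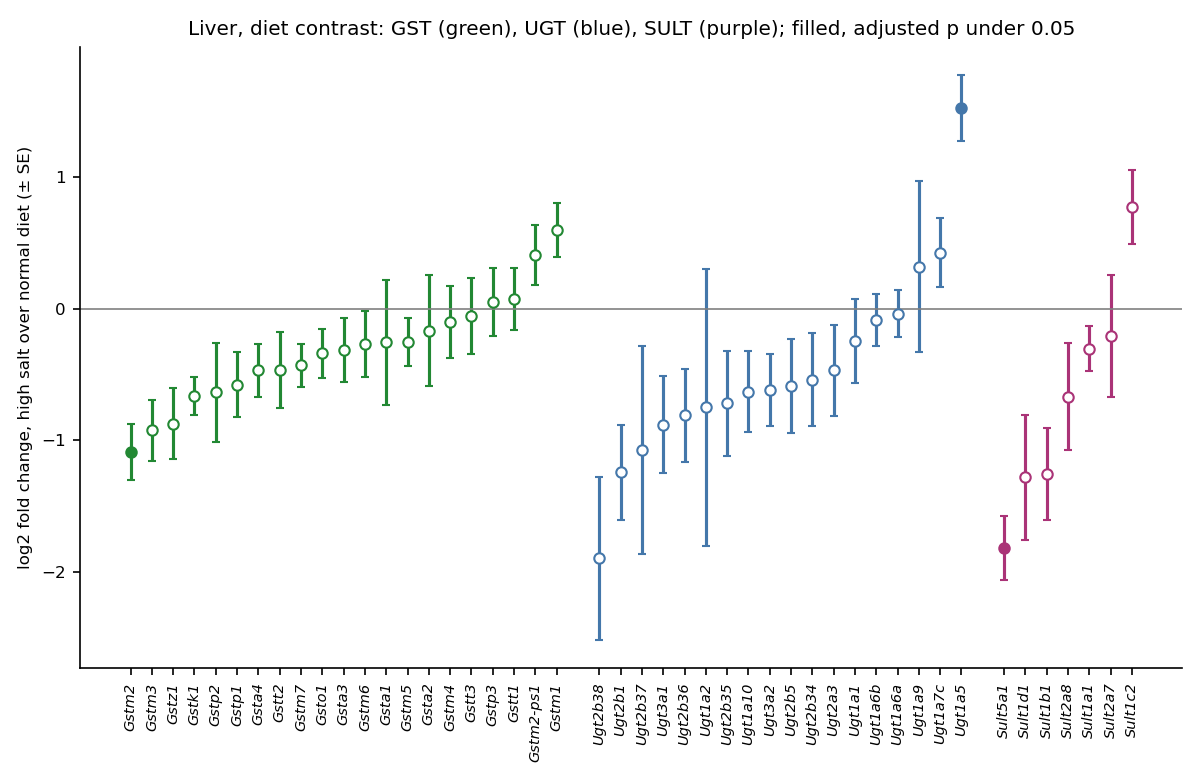
The plot of liver fold changes by diet shows the log2 fold change of high salt over normal diet (vertical axis, bars are 1 SE, 4 libraries per diet) for the 46 tested members, ordered within GST, UGT and SULT. The 3 filled points are Gstm2, Ugt1a5 and Sult5a1, which passed the adjusted p, and 38 of the 46 points lie below 0.

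The start regions of the 3 called genes are shown because these members passed edgeR's adjusted p in the fit of all 8 liver libraries. They are RefSeq promoters of GRCm38.p6, 250 bases before to 50 bases after the start site, printed 5′ to 3′ on the gene's strand, with matches to any of 4 motifs in capitals. Motifs searched on both strands were the antioxidant response element core TGACNNNGC, the nuclear receptor half-site AGGTCA, the xenobiotic response element core GCGTG and the TATA box TATAAA. These letters are present in 12.4%, 16.3%, 32.4% and 13.6% of 32851 RefSeq promoters of this length. Among the 46 members with a promoter in the table they were found in 2, 10, 11 and 6. Ugt1a5 (chr1:88165762-88166061, plus strand) holds GCGTG with its first base at -49, and neither Gstm2 (chr3:107986371-107986670, minus strand) nor Sult5a1 (chr8:123158231-123158530, minus strand) holds any of the 4 in this window.
Ugt1a5: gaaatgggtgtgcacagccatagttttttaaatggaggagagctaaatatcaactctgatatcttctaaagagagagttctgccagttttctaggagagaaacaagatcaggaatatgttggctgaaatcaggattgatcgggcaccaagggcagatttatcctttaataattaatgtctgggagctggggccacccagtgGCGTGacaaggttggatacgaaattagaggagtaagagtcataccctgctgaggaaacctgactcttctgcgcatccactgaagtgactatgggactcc
Gstm2: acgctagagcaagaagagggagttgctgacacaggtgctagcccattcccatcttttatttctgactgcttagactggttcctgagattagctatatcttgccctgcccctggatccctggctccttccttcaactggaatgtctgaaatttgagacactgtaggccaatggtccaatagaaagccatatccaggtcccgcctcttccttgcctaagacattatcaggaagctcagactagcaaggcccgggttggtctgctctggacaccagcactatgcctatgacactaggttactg
Sult5a1: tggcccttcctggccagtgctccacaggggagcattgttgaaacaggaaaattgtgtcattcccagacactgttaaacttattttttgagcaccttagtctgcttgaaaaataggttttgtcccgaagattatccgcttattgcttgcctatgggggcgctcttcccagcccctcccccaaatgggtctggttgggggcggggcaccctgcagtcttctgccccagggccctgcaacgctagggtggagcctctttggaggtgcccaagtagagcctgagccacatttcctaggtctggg

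Ugt1a5, one of the first exons of the Ugt1a locus, was at 39.2, 31.004, 30.4 and 16.9 CPM in the 4 normal diet libraries and at 98.2, 92.9, 65.8 and 81.4 CPM in HS5 to HS8. Every high salt library was above every normal diet library. The log2 fold change was 1.52 ± 0.25 (SE), with an edgeR adjusted p of 0.0321. It passed in 13 of 19 alternatives. The call was lost without normal diet library 2 (edgeR adjusted p = 0.0852), HS5 (0.132), HS6 (0.139) or HS8 (0.102), with HS5 and HS6 summed (0.138) and without normal diet libraries 1 and 2 together (0.0569), and leaving out each library in turn gave log2 fold changes of 1.32 to 1.69. Of the 2203 exonic bases of Ugt1a5 (chromosome 1, 88166012 to 88218998), 1311 are shared with each of the 8 other Ugt1a genes and 394 lie opposite the antisense gene Gm20528, so the expected count depends on how the estimation divided reads of the shared exons. Summed over all 9 Ugt1a genes, liver held 916 ± 202 CPM under the normal diet and 901 ± 65.3 CPM under high salt (SD, n = 4), a log2 ratio of -0.02. Ugt1a5 took 2.71% to 3.66% of that sum on the normal diet and 6.61% to 11.1% on high salt. The share of Ugt1a5 thus differed between the diets without overlap while the sums of the locus overlapped.

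**Figure D2:**
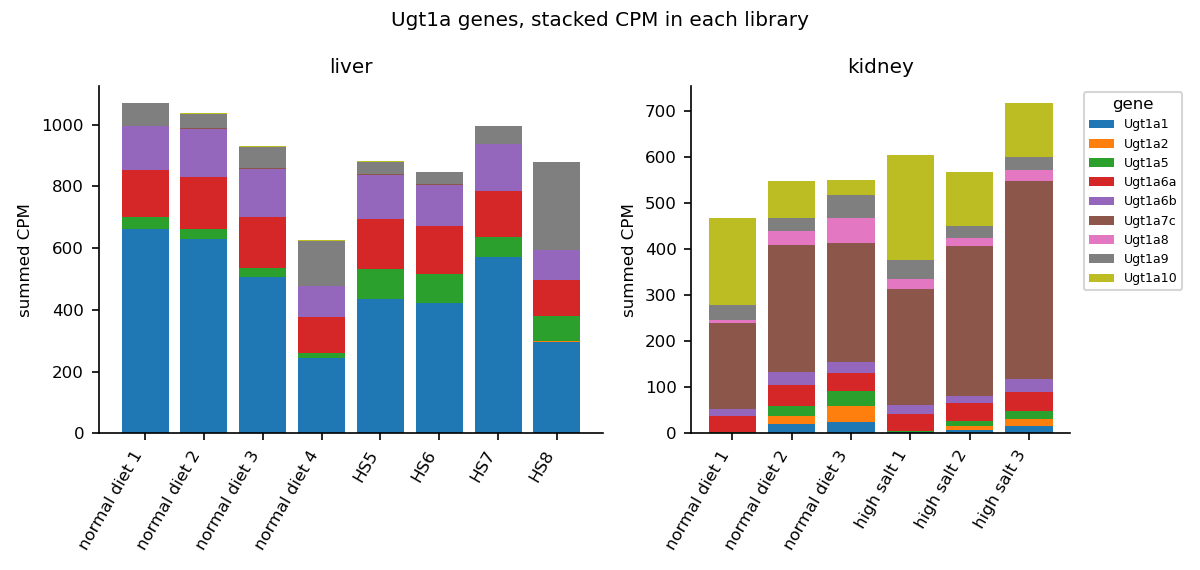
The stacked plot of the Ugt1a genes shows the summed CPM (vertical axis) of the 9 genes in each of the 8 liver and 6 kidney libraries, 1 colour per gene. In liver the Ugt1a1 layer is the largest in every library but the stack of HS8 has a Ugt1a9 layer of 283 CPM, and in kidney the Ugt1a7c layer is the largest in 5 of 6 libraries.

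Gstm2, a mu-class GST, was at 75.2, 57.2, 49.96 and 56.7 CPM on the normal diet and at 26.0, 23.8, 22.9 and 40.0 CPM in HS5 to HS8. All high salt libraries were below all normal diet libraries. It fell by 1.09 on the log2 scale (SE 0.21, edgeR adjusted p = 0.0493). This call lies close to the threshold and passed in 8 of 19 alternatives. It was lost with upper quartile scaling (edgeR adjusted p = 0.0532), without the filter on low counts (0.0589), with at least 10 counts in every library (0.0518) and, by limma, on the deposited normalized values plus 0.1 (0.0506). It was also lost in edgeR without normal diet library 1 (adjusted p = 0.111), 2 (0.0994) or both (0.126), without HS5 (0.198), HS6 (0.206) or HS7 (0.0716), and with HS5 and HS6 summed (0.201). Gstm2 lies on chromosome 3 (107981702 to 107986454) among other mu-class genes of similar sequence, between which the counting could divide reads.

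Sult5a1, a sulfotransferase whose substrate is little known, was at 35.2, 17.4, 31.7 and 19.7 CPM on the normal diet and at 7.72, 6.47, 8.52 and 6.84 CPM in HS5 to HS8. The lowest normal diet library was above the highest high salt library. It fell by 1.82 on the log2 scale (SE 0.24, edgeR adjusted p = 0.0140). Sult5a1 lies on chromosome 8 (123140192 to 123158316, minus strand) and was the member called under most alternatives, 15 of 19. The call was lost without HS5 (edgeR adjusted p = 0.0733), HS6 (0.0751) or HS8 (0.0636), or with HS5 and HS6 summed (0.0741).

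**Figure D3:**
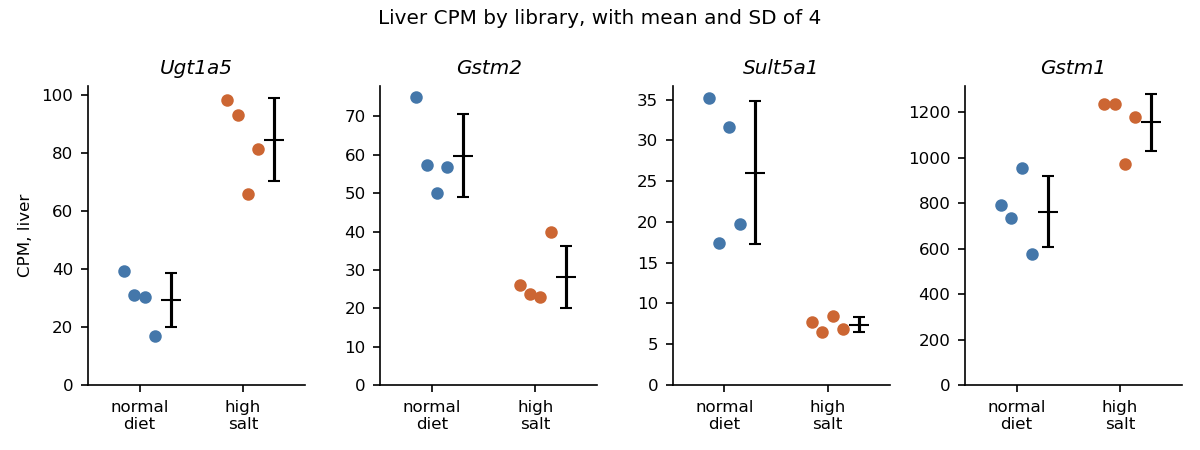
The plot of liver CPM by library gives 4 members, 1 point per library with the mean and SD of the 4 libraries of a diet beside them, on axes that start at 0. The diets do not overlap in any of the 4: Ugt1a5 and Gstm1 are higher on high salt, Gstm2 and Sult5a1 lower.

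The GST family in liver, Gstm2 included, was mostly below the normal diet level, with 17 of 21 tested genes at a negative fold change and a family median of -0.32. Of the 21, 7 had an unadjusted p under 0.05 and a lower level, and 1, Gstm1, had a higher one. Gstm1 was at 792, 734, 954 and 575 CPM on the normal diet and at 1235, 1237, 974 and 1179 CPM in HS5 to HS8. The diets did not overlap, but the log2 fold change of 0.60 ± 0.21 did not pass (edgeR adjusted p = 0.162). The 6 other mu-class enzyme genes had negative fold changes, and Gstm3 had 55.1, 53.4, 81.1 and 37.5 CPM against 29.9, 31.6, 23.2 and 34.9 CPM, also without overlap (edgeR adjusted p = 0.0879). Summed over the 8 Gstm genes, liver held 1259 ± 241 CPM under the normal diet and 1608 ± 165 CPM under high salt (SD, n = 4). Gstm1 took 57.5% to 64.4% of this sum on the normal diet and 70.8% to 72.9% on high salt, while Gstm2 took 3.38% to 6.17% and 1.40% to 2.40%. The pseudogene Gstm2-ps1, on chromosome 5, was at 103 to 242 CPM in liver, and in all 14 libraries of both tissues its CPM was 16.8% to 22.5% of that of Gstm1.

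Gstk1, the kappa-class enzyme of mitochondria and peroxisomes, was at 121, 129, 106 and 96.1 CPM on the normal diet and at 75.2, 74.8, 67.5 and 67.7 CPM on high salt. Gstz1, the maleylacetoacetate isomerase of tyrosine breakdown, was at 1423, 1348, 804 and 649 CPM against 552, 527, 635 and 593 CPM. Neither gene overlapped between the diets and neither passed (edgeR adjusted p = 0.0670 for Gstk1 and 0.133 for Gstz1). In Gstz1 normal diet libraries 1 and 2 stood far above the other 2. The member with the highest mean CPM in liver, Gstp1, had 2526, 2437, 1512 and 1663 CPM against 1427, 1477, 1518 and 1030 CPM. Gsta3 had 1852, 1973, 1624 and 1002 CPM against 1359, 1285, 1423 and 1118 CPM. These 2 genes overlapped between the diets, at log2 fold changes of -0.58 ± 0.25 and -0.32 ± 0.24. In all, 5 members were lower and 3 higher on high salt without overlap, against 6.05% and 6.44% of all genes tested (12.5% in either direction).

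Of 18 UGT genes tested in liver, 15 had a negative fold change, 5 of them with an unadjusted p under 0.05, and the family median was -0.60. All 7 Ugt2b genes, whose enzymes glucuronidate steroids, bile acids and drugs, were below 0, with log2 fold changes of -1.89 to -0.54 and none called by edgeR. Their sum was 6284, 6677, 4108 and 2067 CPM on the normal diet and 2557, 2494, 3923 and 2373 CPM in HS5 to HS8. Normal diet libraries 1 and 2 were high, HS7 was the highest high salt library, and normal diet library 4 lay below all high salt libraries. Ugt2b1 had 1112, 986, 756 and 304 CPM against 323, 331, 422 and 259 CPM (log2 fold change -1.24 ± 0.36, edgeR adjusted p = 0.118). Ugt2b36 had 1766, 1888, 1112 and 682 CPM against 628, 607, 1185 and 691 CPM, and Ugt2b5 had 2175, 2318, 1401 and 721 CPM against 995, 959, 1535 and 920 CPM. Without normal diet libraries 1 and 2 the log2 fold change of Ugt2b5 turned from -0.59 to 0.05. Ugt1a1, the bilirubin-conjugating enzyme, had 661, 630, 505 and 244 CPM against 433, 422, 571 and 297 CPM, an overlapping range. Ugt3a1, of a subfamily known to use sugars other than glucuronic acid, had 137.7, 75.3, 78.3 and 33.5 CPM against 36.5, 36.4, 40.7 and 62.9 CPM, and Ugt1a10 stayed between 1.16 and 3.12 CPM in all liver libraries.

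Among the 7 SULT genes tested in liver, 6 had a negative fold change and the median was -0.67. Sult1b1, known for sulfating thyroid hormone, had 57.1, 58.9, 30.5 and 18.1 CPM on the normal diet and 13.6, 14.5, 21.4 and 19.3 CPM on high salt, with a log2 fold change of -1.26 ± 0.35 that did not pass (edgeR adjusted p = 0.108). Sult1d1, a catecholamine sulfotransferase in mice, had 212, 379, 171 and 75.0 CPM against 63.2, 64.2, 156 and 61.7 CPM. The diets overlapped in both genes, since normal diet library 4 lay below HS7. Sult2a8 had 1559, 1500, 799 and 502 CPM against 525, 515, 1144 and 561 CPM, and its log2 fold change of -0.67 ± 0.40 turned to 0.08 without normal diet libraries 1 and 2. Sult1a1, the main phenol sulfotransferase, stayed between 145 and 233 CPM in all 8 libraries. Sult1c2 was the SULT gene that lay higher on high salt without overlap, at 4.66, 4.11, 3.65 and 1.95 CPM against 5.29, 5.22, 8.21 and 5.85 CPM (edgeR adjusted p = 0.172). Sult2a7, listed for liver only, was at 0.409 to 2.32 CPM.

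Around these families, 1 of 15 genes of other conjugating enzymes fell on high salt in liver and none rose. It was Nnmt, which methylates nicotinamide, at 423, 465, 279 and 369 CPM on the normal diet and 61.9, 61.8, 82.4 and 56.9 CPM on high salt (log2 fold change -2.55 ± 0.21, edgeR adjusted p = 0.00460), and it passed in all 19 alternatives. Of 12 targets of the drug receptors CAR and PXR tested, 1 fell, Cyp2b10, from 13.8 ± 6.12 to 2.64 ± 1.00 CPM (SD, n = 4, edgeR adjusted p = 0.0321), and the list's median was -0.65. At an unadjusted p under 0.05 in edgeR, 5 of these 12 were lower and 0 higher. Of the 15 other conjugating genes 4 were lower and 0 higher, where 11.3% of all genes tested were lower. Of 5 deconjugating enzymes, 1 rose, Arsa, a lysosomal arylsulfatase, from 24.1 ± 3.38 to 46.0 ± 4.60 CPM (SD, n = 4, edgeR adjusted p = 0.0321). None of 9 genes that supply UDP-glucuronate and PAPS, 11 of glutathione synthesis and recycling, 12 of other glutathione use, 12 xenobiotic receptors and partners or 12 targets of NRF2 passed edgeR's adjusted p, with 4, 2, 4, 3 and 1 of them at an unadjusted p under 0.05, where 1.00% of all genes tested passed and 21.2% had an unadjusted p under 0.05. In the same order, 2, 0, 1, 3 and 1 of these were higher on high salt and 2, 2, 3, 0 and 0 lower. With HS5 and HS6 summed, Nnmt kept its call (edgeR adjusted p = 0.0310), and Cyp2b10 (0.138) and Arsa (0.138) did not. In 4 of these lists the smallest p belonged to Slc35b2 (73.1 ± 30.6 against 38.6 ± 3.49 CPM), Cth (343 ± 184 against 152 ± 11.3 CPM), Gpx1 (2394 ± 760 against 1171 ± 218 CPM) and Aox1 (45.2 ± 12.6 against 66.8 ± 9.62 CPM; all SD, n = 4). The 8 pericentral hepatocyte genes summed to 8668 to 12068 CPM on the normal diet and 5221 to 6718 CPM on high salt, and 3 of the 8 fell (Cyp1a2, Oat and Rhbg). Of these, Rhbg passed with HS5 and HS6 summed (edgeR adjusted p = 0.0320), and Cyp1a2 (0.201) and Oat (0.189) did not. The 7 periportal genes summed to 3741 to 4883 and 3053 to 3841 CPM, with none called. The 8 acute phase genes were all lower on high salt at an unadjusted p under 0.05 with none called, and summed to 3081 to 62140 CPM on the normal diet and 1757 to 2370 CPM on high salt, so the diets did not overlap with or without normal diet library 4. The 7 hepatocyte genes measured summed to 50909 to 77755 CPM and 89213 to 105536 CPM, also without overlap. Of these 7, however, 2 had a positive fold change and the median was -0.18. At an unadjusted p under 0.05, 1 was higher and 1 lower. The 6 endothelial and stellate cell genes all had positive fold changes, 3 at an unadjusted p under 0.05, with overlapping sums of 90.3 to 151 CPM and 139 to 177 CPM. The part of these 5 lists and of the mitochondrial share in the members' differences was not tested beyond the fits without libraries given above.

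The tissue comparison set liver against kidney on the normal diet, in 1 model of the 14 libraries for genes present in both tables. The tables were quantified apart, so the tissue and the quantification run cannot be told apart. Of 48 members, 43 passed edgeR's adjusted p, 31 higher in liver and 12 higher in kidney, where 65.1% of all 16633 genes tested passed (32.9% higher in liver and 32.2% in kidney). The median log2 fold change, liver over kidney, was 3.18 over the members and 0.02 over all genes. In the GST family 17 of 21 genes were higher in liver and 1 in kidney. In the UGT family 10 of 20 were higher in liver and 9 in kidney, and in the SULT family 4 of 7 and 2 of 7.

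**Figure D4:**
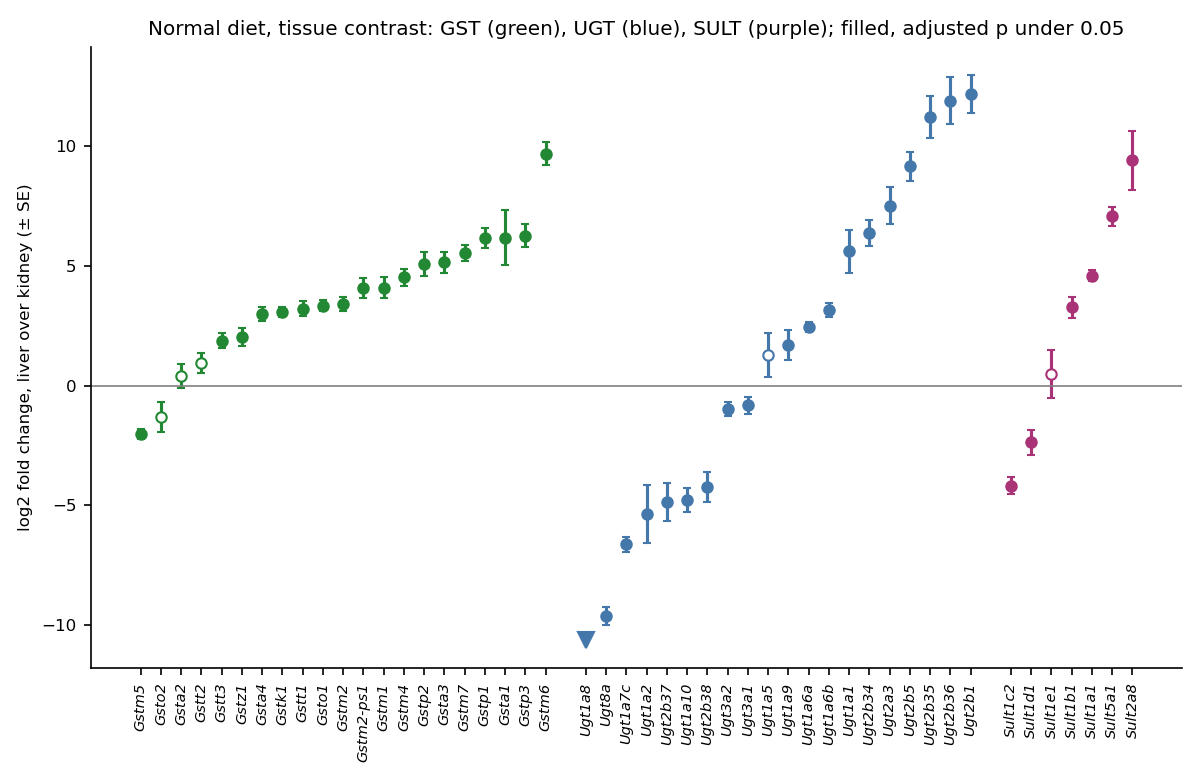
The plot of tissue fold changes shows the log2 fold change of liver over kidney on the normal diet (vertical axis, bars are 1 SE, 4 liver and 3 kidney libraries) for 48 members ordered within each family, with filled points past the adjusted p. GST points are mostly above 0, and UGT points run from Ugt1a8 to Ugt2b1 at 12.2. The triangle of Ugt1a8, at -10.6 with no SE, is the bound set by 3 counts over the liver libraries, where it had 0.

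Gstm5 was the GST gene with the higher level in kidney, at 11.8 ± 3.20 CPM in liver (n = 4) and 47.8 ± 9.26 CPM in kidney (n = 3, SD, library sizes scaled over both tissues as in the rest of this comparison). Gsto2, of the omega class that reduces dehydroascorbate, was near the limit of detection in both (0.171 ± 0.113 and 0.424 ± 0.280 CPM, SD) and was not called (edgeR adjusted p = 0.0777). At the other end, Gstm6 was at 119 ± 44.0 CPM in liver and 0.141 ± 0.018 CPM in kidney (log2 fold change 9.68 ± 0.49), and Gstp3 at 13.3 ± 3.37 and 0.169 ± 0.105 CPM (6.26 ± 0.48). The kidney values of these 2 genes rest on 10 and 12 counts over the 3 normal diet libraries, in which 3 counts are worth 0.138 to 0.153 CPM, so the size of both folds is loosely set. Gstp1 and Gsta3, leading genes of liver, were lower in kidney by log2 fold changes of 6.16 ± 0.42 and 5.14 ± 0.44. Gstz1 differed less, at 2.04 ± 0.38.

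The UGT family split by tissue within its subfamilies. Ugt2b1 (950 ± 455 CPM in liver and 0.210 ± 0.199 in kidney, SD), Ugt2b36 (1639 ± 741 and 0.445 ± 0.577) and Ugt2b5 (1992 ± 958 and 3.50 ± 1.01) were higher in liver. Ugt2b38 (55.1 ± 56.9 CPM in liver and 1037 ± 240 in kidney) and Ugt2b37 (7.23 ± 3.94 and 211 ± 96.8) were higher in kidney, with log2 fold changes of -4.23 ± 0.64 and -4.87 ± 0.78. In the Ugt1a locus, Ugt1a1 was higher in liver (612 ± 246 against 12.6 ± 10.3 CPM, SD), and Ugt1a7c (1.97 ± 0.53 against 196 ± 38.7) and Ugt1a10 (2.96 ± 0.86 against 81.9 ± 65.4) were higher in kidney. Ugt1a8 had 0 counts in the 4 normal diet liver libraries together after rounding and 1758 counts in the 3 kidney libraries. At a floor of 3 counts over the liver group this makes it at least 1566-fold higher in kidney, for counting error only. At least 1311 of its 2227 exonic bases are shared with each of the 8 other Ugt1a genes, so its counts depend on how reads were divided. With Ugt1a8 at that bound the members' median was again 3.18. Ugt8a, the galactosyltransferase that makes galactosylceramide, was at 0.183 ± 0.048 CPM in liver and 145 ± 21.5 CPM in kidney (SD).

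The start regions of 4 Ugt2b genes are shown because Ugt2b5, a liver gene, has a start region close in sequence to those of Ugt2b37 and Ugt2b38, which are kidney genes. Ugt2b36, a liver gene less like them, is shown beside them for the run it shares. Ugt2b5 (chr5:87140291-87140590) and Ugt2b36 (chr5:87092506-87092805) are the liver genes, and Ugt2b37 (chr5:87254739-87255038) and Ugt2b38 (chr5:87424154-87424453) the kidney genes, all on the minus strand of RefSeq's GRCm38.p6. Identity was counted as matching bases of a pairwise alignment over the full promoter length. The promoter of Ugt2b38 was 91.3% identical to that of Ugt2b37 and 87% to that of Ugt2b5, while Ugt2b36 was 67.3% to 69.0% identical to these 3. By the same measure the promoters of the Gstm genes were 56.7% to 62.7% identical to each other. All 4 share a run of 22 bases, with the nuclear receptor half-site AGGTCA (capitals) starting at -22 in Ugt2b5, -25 in Ugt2b36 and Ugt2b38 and -39 in Ugt2b37. The match is a description of the letters and not a measured binding site.
Ugt2b5: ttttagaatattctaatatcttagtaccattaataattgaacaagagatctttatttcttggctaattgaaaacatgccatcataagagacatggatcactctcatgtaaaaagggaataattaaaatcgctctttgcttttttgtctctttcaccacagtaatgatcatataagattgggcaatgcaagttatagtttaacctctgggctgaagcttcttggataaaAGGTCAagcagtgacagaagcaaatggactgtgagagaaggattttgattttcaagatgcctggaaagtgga
Ugt2b36: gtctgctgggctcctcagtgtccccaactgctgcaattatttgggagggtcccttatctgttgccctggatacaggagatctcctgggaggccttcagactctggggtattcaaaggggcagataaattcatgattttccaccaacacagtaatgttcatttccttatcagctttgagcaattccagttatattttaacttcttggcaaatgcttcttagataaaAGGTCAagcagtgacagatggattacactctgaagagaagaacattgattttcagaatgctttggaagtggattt
Ugt2b37: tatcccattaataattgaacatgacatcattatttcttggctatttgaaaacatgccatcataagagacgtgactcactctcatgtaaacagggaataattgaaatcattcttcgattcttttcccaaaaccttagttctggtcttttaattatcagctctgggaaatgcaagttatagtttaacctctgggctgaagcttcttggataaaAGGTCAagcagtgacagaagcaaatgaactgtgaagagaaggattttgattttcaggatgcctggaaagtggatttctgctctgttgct
Ugt2b38: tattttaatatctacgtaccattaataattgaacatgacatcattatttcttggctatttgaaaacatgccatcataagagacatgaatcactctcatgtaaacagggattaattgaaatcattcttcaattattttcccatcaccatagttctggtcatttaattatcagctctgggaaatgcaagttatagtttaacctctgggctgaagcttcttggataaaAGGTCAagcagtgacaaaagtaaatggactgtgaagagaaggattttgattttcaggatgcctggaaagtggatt
These 4 genes were picked for their likeness and for the shared run, so nothing about the tissue pattern is drawn from the half-site in them. Of the other liver genes of this subfamily, Ugt2b1 and Ugt2b34 held no AGGTCA in this window and Ugt2b35 held it at -215. The exons of Ugt2b5, Ugt2b37 and Ugt2b38 were not compared. If they are as alike as the start regions, the counting could divide reads between these genes. A low level in 1 tissue beside a high copy, such as that of Ugt2b5 in kidney, is therefore uncertain.

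Among SULT genes, Sult1c2 (4.30 ± 1.54 CPM in liver and 78.2 ± 28.6 in kidney, SD) and Sult1d1 (253 ± 161 and 1306 ± 541) were higher in kidney. Sult2a8 (1314 ± 675 and 1.98 ± 2.93 CPM) and Sult5a1 (30.9 ± 10.7 and 0.231 ± 0.090 CPM) were higher in liver, with log2 fold changes of 9.40 ± 1.22 and 7.06 ± 0.38. Sult5a1 had 16 counts over the 3 kidney libraries, so its fold is loosely set as well. In kidney normal diet library 2 alone Sult2a8 reached 6.56 CPM, against 0 to 0.726 CPM in the other 5 kidney libraries. The same library had the highest kidney value of Ugt2b36 (1.35 CPM), Ugt2b1 (0.527 CPM) and the hepatocyte gene Alb (35.7 CPM against 2.70 to 10.9 in the others). The 7 hepatocyte genes measured did not stand out there as a sum, at 368 CPM against 324 to 604 CPM in the other 5 kidney libraries. The part of Alb and the other hepatocyte genes in the low kidney values was not tested.

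In kidney the 21 GST genes together held 876 ± 235 CPM under the normal diet and 969 ± 188 CPM under high salt (SD, n = 3), the 20 UGT genes 3451 ± 264 and 3821 ± 558, and the 9 SULT genes 1720 ± 705 and 1684 ± 641. Per kilobase of merged exons, with the same limit as in liver, the leading kidney members were Ugt2b38 (694 CPM per kb), Sult1d1 (652) and Ugt3a2 (342). In the kidney diet comparison, edgeR called 0 of 40 members tested, as it did of all 15847 genes (0%). One member, Gstp2, had an unadjusted p under 0.05 (0.0187), at a higher level, against 2.01% of all genes tested (1.27% higher), and DESeq2 also called 0 members. The median log2 fold change was 0.05 over the members and -0.02 over all genes, and 18 of 40 lay below 0, as did 53.7% of all genes. Members too low to test were Gsta1, Gstm6, Gstp3, Sult1e1, Sult2a8, Sult2b1, Sult5a1, Ugt2b1, Ugt2b35 and Ugt2b36.

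Gstp2 was at 0.492, 0.626 and 0.330 CPM in the 3 normal diet kidney libraries and at 1.19, 1.67 and 0.876 CPM on high salt. The high salt values were all above the normal diet values, at levels where 3 counts are worth 0.136 to 0.187 CPM, and edgeR's adjusted p was 1.00. Ugt3a2, a leading kidney UGT, had 1002, 962 and 1007 CPM against 1064, 1163 and 1171 CPM, also without overlap, at a log2 fold change of 0.19 ± 0.20. Gstm4 was the third member without overlap, at 3.20 to 3.90 CPM against 3.97 to 4.64 CPM. All 3 were higher on high salt, where 3.85% of all genes tested were, and 6.92% did not overlap in either direction. Alpha-class Gsta2 had 16.6, 52.1 and 38.6 CPM against 48.3, 45.6 and 105 CPM, and Gstm1 had 107, 46.7 and 42.3 CPM against 112, 68.4 and 160 CPM. Ugt1a7c had 187, 277 and 257 CPM against 253, 325 and 431 CPM. Each of these overlapped between the diets. The Ugt1a sum was 468, 547 and 550 CPM on the normal diet and 604, 567 and 718 CPM on high salt. Every high salt library was above every normal diet library in this sum. Of the 9 genes behind it, 7 had a negative fold change, with a median of -0.19, and no single gene was without overlap.

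Several kidney members varied more between libraries of a diet than between the diets. Sult1d1 was at 839, 2006 and 1959 CPM on the normal diet and 1144, 2345 and 1321 CPM on high salt, with nearly equal means (1602 ± 661 and 1603 ± 648 CPM, SD, n = 3). Gstz1 had 203, 447 and 482 CPM against 266, 409 and 353 CPM, and Gstt2, a theta-class GST, had 37.9, 127 and 136 CPM against 70.0, 132 and 115 CPM. Library 1 of each diet was the lowest of its diet in all 3. In the Ugt1a locus the same libraries stood apart more widely: Ugt1a1 was at 1.01, 20.9 and 24.5 CPM on the normal diet and 2.80, 6.73 and 16.1 CPM on high salt. Ugt1a10 ran the other way, at 190, 78.9 and 33.2 CPM against 227, 117 and 117 CPM. Ugt1a5 had 0.147, 20.5 and 32.7 CPM against 0.930, 10.7 and 16.7 CPM, so its kidney level in library 1 of each diet was under 1 CPM. Ugt1a8 had 7.30, 28.9 and 54.2 CPM against 22.1, 17.2 and 22.8 CPM, so library 1 was its lowest on the normal diet only. The 8 proximal tubule genes summed to 24143, 56259 and 58521 CPM on the normal diet and 32355, 58601 and 40113 CPM on high salt, nearly all of it Kap, with library 1 of each diet again the lowest. Whether the members' differences follow from the proximal tubule share was not tested.

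**Figure D5:**
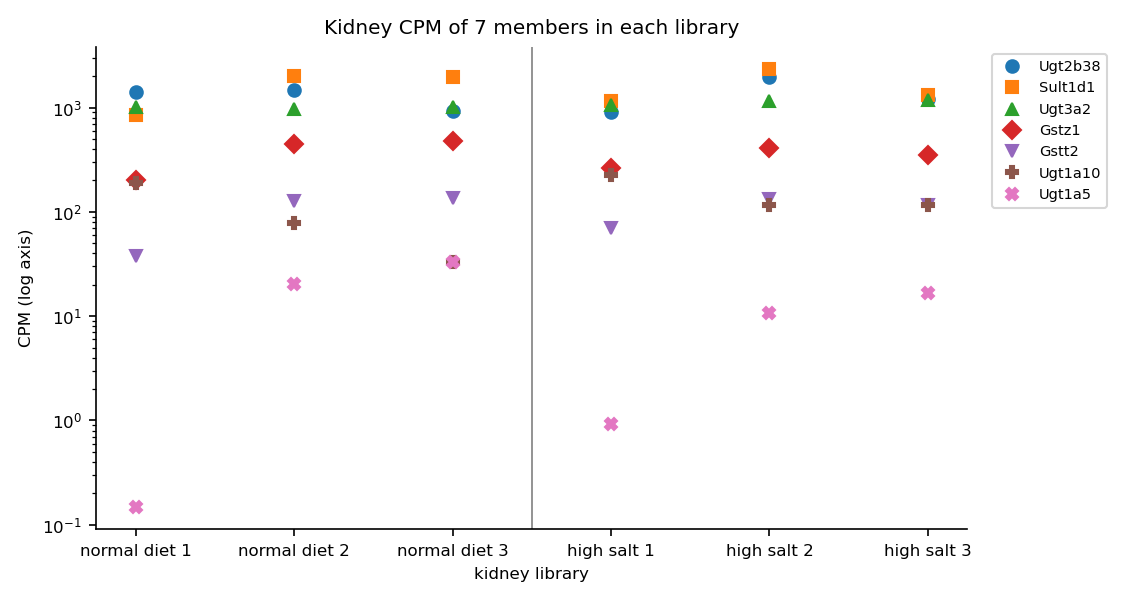
The plot of kidney CPM by library gives 7 members in the 6 kidney libraries on a log axis, with the diets divided by a line. Library 1 of each diet has the lowest Sult1d1, Gstz1, Gstt2 and Ugt1a5 of its diet and the highest Ugt1a10, and Ugt3a2 differs little between the 6 libraries.

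The remaining SULT genes of kidney were low or overlapped. Sult1c2 had 55.6, 115 and 117 CPM against 56.5, 51.7 and 84.6 CPM, and Sult1a1 had 8.84, 13.5 and 12.6 CPM against 7.86, 8.95 and 10.5 CPM. Sult2a3, listed for kidney only, had 0.200, 2.81 and 1.94 CPM against 0.223, 0.630 and 1.14 CPM, and Sult2b1, the cholesterol sulfotransferase, stayed between 0.0999 and 0.527 CPM. Ugt2b38 had 1420, 1467 and 929 CPM against 910, 1950 and 1194 CPM. None of the lists around the families held a gene that edgeR called in kidney, as no gene of the whole table was called. The smallest unadjusted p of those lists was that of Cyp2a5, a CAR and PXR target, at 78.98 ± 28.4 CPM under the normal diet and 311 ± 161 CPM under high salt (SD, n = 3). Its edgeR p was 0.00335 unadjusted and 1.00 adjusted. In the other 7 lists the smallest p belonged to Ugdh, Ggct, Acy3, Inmt, Gusb, Ahr and Nqo1, and of these Ggct alone had an unadjusted p under 0.05 (0.0420).

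Whether the diet difference itself differed between liver and kidney was tested in the fit of all 14 libraries. edgeR called 0 of 48 members and 0% of all 16633 genes, and 13 members had an unadjusted p under 0.05 against 10.1% of all genes tested. The smallest adjusted p was 0.179, for Sult5a1, at a difference of -2.25 ± 0.53 on the log2 scale, followed by Gstm2 (-1.36 ± 0.36, adjusted p = 0.239). DESeq2 called these 2 genes. For Ugt1a5 the difference was 2.44 ± 1.27 (edgeR adjusted p = 0.531), so the rise in liver was not shown to differ from the kidney values, in which its libraries ran from 0.147 to 32.7 CPM.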

How the data were processed

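RNA of liver and kidney was extracted with a column kit and made into SMARTer mRNA libraries, per the labels' protocols. The authors deposited expected counts per gene from Partek's expectation-maximisation quantification, 1 table per tissue, per the file headers. They also deposited normalized expression values (used here as a signal with no stated scale), and Partek 7.0, STAR 2.5.3a, DESeq2 and mm10 are named in the submitters' processing notes without roles.

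After rounding of the expected counts, genes were tested by edgeR 4.0.16 (TMM, filterByExpr, quasi-likelihood) over all genes of a tissue, calling an adjusted p under 0.05. Tissue and tissue by diet were tested in 1 fit over the 17600 genes of both tables. CPM used TMM-scaled library sizes. Alternatives used DESeq2 1.42.0 and limma 3.58.1 (voom with sample weights, and log2 of the deposited normalized values plus 1 or 0.1, genes with a mean of at least 1), other scaling, low-count filters (none, or 10 counts in every library) and left-out libraries. The tests were checked on simulated data. The gene of smallest p in 1 list is not reported here. The members and lists were chosen with earlier results of these data known. Members were named by rule: those called, the 3 highest and the 2 of smallest p per family and tissue, the 2 extremes of liver against kidney in each direction, and those listed in 1 table. Gstm4, Gstz1 in liver, Sult1c2 in liver, Ugt1a1 and Ugt1a9 in liver and Ugt2b37 were added after their values were seen. Names of high salt liver columns give the diet without a title's number. Exon lengths come from GENCODE M21 (GRCm38), whose gene starts equal the tables' for all 52 members, and promoters from RefSeq (46 of 52 members matched). SD, SE and 95% Wilson intervals are over libraries or counts as stated.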

Additional observations from a re-analysis of the deposited data

Results flagged for a closer look

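Dixon's test at 95% checked 92 groups of 4 liver libraries (46 members on 2 diets) for 1 library far from the other 3. It flagged 13 groups, where about 4.6 would be by chance if libraries and members were independent. HS5 and HS6 were nearly alike, so no excess over chance is drawn from these numbers. In 9 of the 13 groups the library that stood apart was HS7. HS7 was high for Sult1d1 (155.5 CPM), Sult2a8 (1144 CPM), Ugt2a3 (285 CPM), Ugt2b35 (335 CPM), Ugt2b36 (1185 CPM), Ugt2b37 (8.64 CPM), Ugt2b38 (20.3 CPM) and Ugt2b5 (1535 CPM), and low for Gstm4 (38.1 CPM). The kidney gene Kap was at 37.4 CPM in HS7 against 0 to 9.82 in the other liver libraries, and its part in these values was not tested.

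HS8 was high for Gstp3 (17.6 CPM), Ugt1a9 (283 CPM) and Ugt3a1 (62.9 CPM). It also held 254 CPM of Cyp2a4, from the list of female-biased liver genes, against 0.240 to 1.28 CPM in the other liver libraries. The 7 genes of that list found in liver summed to 254 CPM in HS8, so nearly all of it was Cyp2a4. The 8 male-biased liver genes summed to 13102 CPM in HS8, within the 9491 to 14276 CPM of the other liver libraries. Of these 8, 1 (Cyp7b1) was called lower on high salt, where 0.410% of all genes tested were. The part of Cyp2a4 in the HS8 values was not tested. Normal diet library 4, the library with the high acute phase genes, was high for Gstp2 (23.6 CPM).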

How the results depend on the processing

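In the liver diet comparison 3 members were called, 2 to 3 under RLE or upper quartile scaling, no filter, at least 10 counts, no mitochondrial genes and the deposited normalized values, 9 with DESeq2 and 32 with voom weights. With HS5 and HS6 summed 0 were called (12 of 15399 genes in all), without normal diet libraries 1 and 2 1 was, and leaving out 1 library at a time gave 0 to 9 (0 without HS5 or HS6, 1 without normal diet library 2 or HS8, 9 without normal diet library 4). The cause was not tested. Signs turned in a few single genes: Sult2a7 in liver went from -0.21 to 0.037 and 0.043 on normalized values (pseudocounts 1 and 0.1), -0.49 to 0.40 as single libraries were left out (positive without normal diet library 2) and 0.69 without libraries 1 and 2. The last fit gave 0.078 for Sult2a8 and 0.055 for Ugt2b5, and Ugt1a8 in kidney ran from -1.002 to 0.20 (without normal diet library 3). In liver, summing a subfamily gave a log2 ratio of 0.35 for the Gstm genes, against -1.09 for Gstm2 alone. For the Ugt1a genes it gave -0.024, against 1.52 for Ugt1a5 alone.

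The kidney call count was 0 in all 16 alternatives. With the replicate numbers of the titles as a block it was 0, with 5 members at an unadjusted p under 0.05. Same-numbered kidney libraries deviated together with correlations of 0.41, 0.37 and -0.09, so the numbers were not taken as pairs, and library 3 correlated better with another number. Liver against kidney gave 41 to 44 calls, 30 of 32 with at least 10 counts in every library, and 41 with a replicate block on normal diet libraries 1 to 3. No member passed for the interaction except 2 with DESeq2. No paired analysis was possible for the liver diet comparison and the interaction because the high salt liver columns carry no title's number. Depth limits Gsto2, Sult1e1, Ugt8a and Ugt1a8 in liver, where 3 counts are 0.0583 to 0.0805 CPM, and Gstm6, Gstp3, Sult5a1 and Ugt2b1 in kidney (0.136 to 0.187 CPM).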
